A study of Mus musculus with 15 samples.

Results

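Interferon-stimulated genes are the antiviral and antigen-presenting genes that cells switch on after sensing virus or interferon. A set of 39 such mouse genes was named by symbol, and each was taken as the array probe of that symbol with the highest mean signal. All 39 were among the 31753 gene names on the array, and 37 were among the 25087 genes bright enough to test. They were named as known genes of the response, and the rule uses no difference between groups. The list was, however, chosen with earlier results of these data known. Counts of members beside the shares of all genes are therefore descriptions only.

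Total RNA was measured on 15 Agilent 1-colour arrays of mouse embryonic stem (ES) cells, which are cultured cells of the early embryo that can form all lineages of the body. The groups were cells with the short hairpin RNA sh4 after 72 hours in 1 µM retinoic acid (3 arrays), cells with the control hairpin shCTR after the same treatment (4 arrays), untreated sh4 cells (4 arrays) and untreated shCTR cells (4 arrays). Retinoic acid is a vitamin A derivative that makes ES cells differentiate. The gene that sh4 is directed against is not in the labels, which also give neither a culture time for untreated cells nor separate cultures for the replicates. Retinoic acid and 72 hours of culture thus cannot be told apart, and the p-values below measure the spread between these samples. Phf19, the gene in the study's title, belongs to Polycomb repressive complex 2, which methylates lysine 27 of histone H3.

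The level of Phf19 in sh4 cells was 30.2% of that in shCTR cells without treatment and 54.4% with retinoic acid, and the groups did not overlap. All 8 ES cell markers were well above background on every untreated array. The share of probes well above background was 73.8% to 79.4% per array, and no spot was saturated. The arrays sat on 4 slides, and slide 4 held no sh4 array with retinoic acid. For 3 arrays the scanner's own quality rating asked for evaluation. These were replicate 1 of sh4 in retinoic acid, replicate 3 of untreated sh4 and replicate 2 of untreated shCTR, and they were kept.

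In the usual course of the response, sensors such as Ddx58 (RIG-I) and Ifih1 (MDA5) detect viral nucleic acid and lead to secretion of interferons. Type I interferon acts through its receptor and JAK kinases to assemble a complex that holds Stat2 and Irf9 and binds the interferon-stimulated response element (ISRE) in promoters. Interferon gamma acts on promoters through the gamma-activated site (GAS). ES cells are known to make little interferon and to respond weakly to it, and they gain the response as they differentiate.

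Promoter sequences are shown for 5 members that were at least 2-fold higher in untreated sh4 than in untreated shCTR cells, from the RefSeq table used (GRCm38.p6), so that these elements can be read beside the values. Each runs from 250 bases before to 50 bases after the annotated start, 5′ to 3′ on the strand of the gene. Capitals mark the letters of the ISRE (GAAA, any 2 bases, GAAA), the GAS (TTC, any 3 bases, GAA) or an NF-kappaB site, each searched on both strands.
Oasl2 (chr5:114896684-114896983, plus strand): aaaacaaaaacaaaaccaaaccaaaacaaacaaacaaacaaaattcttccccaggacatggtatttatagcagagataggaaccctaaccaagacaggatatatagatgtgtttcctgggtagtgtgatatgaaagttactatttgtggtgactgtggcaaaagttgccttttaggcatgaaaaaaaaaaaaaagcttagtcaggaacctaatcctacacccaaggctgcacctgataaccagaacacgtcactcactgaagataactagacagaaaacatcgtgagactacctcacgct
Psmb8 (chr17:34197945-34198244, plus strand): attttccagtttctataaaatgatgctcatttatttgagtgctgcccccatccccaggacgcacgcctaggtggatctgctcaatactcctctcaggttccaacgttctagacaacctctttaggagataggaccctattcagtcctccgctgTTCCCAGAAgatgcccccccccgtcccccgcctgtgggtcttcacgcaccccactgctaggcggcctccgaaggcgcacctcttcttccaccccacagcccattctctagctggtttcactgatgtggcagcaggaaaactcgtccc
Cxcl10 (chr5:92348840-92349139, minus strand): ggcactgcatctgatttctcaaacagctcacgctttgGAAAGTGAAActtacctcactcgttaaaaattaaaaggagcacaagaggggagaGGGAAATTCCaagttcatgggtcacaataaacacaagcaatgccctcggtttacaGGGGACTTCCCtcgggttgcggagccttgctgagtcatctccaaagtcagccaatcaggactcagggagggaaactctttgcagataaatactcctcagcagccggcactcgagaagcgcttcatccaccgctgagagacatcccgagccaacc
Isg15 (chr4:156200769-156201068, minus strand): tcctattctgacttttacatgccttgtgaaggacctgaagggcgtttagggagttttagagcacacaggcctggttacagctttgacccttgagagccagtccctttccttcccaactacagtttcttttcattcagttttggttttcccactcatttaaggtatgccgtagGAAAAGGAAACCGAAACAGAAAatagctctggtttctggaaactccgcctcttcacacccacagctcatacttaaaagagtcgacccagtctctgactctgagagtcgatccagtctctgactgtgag
Ifih1 (chr2:62646206-62646505, minus strand): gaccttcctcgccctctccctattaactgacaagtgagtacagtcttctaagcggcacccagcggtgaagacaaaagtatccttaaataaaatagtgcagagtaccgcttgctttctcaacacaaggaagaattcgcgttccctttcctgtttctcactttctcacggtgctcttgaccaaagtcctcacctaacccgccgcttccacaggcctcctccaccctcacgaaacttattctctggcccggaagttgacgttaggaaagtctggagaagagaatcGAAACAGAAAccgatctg

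Isg15 held 3 overlapping matches to the ISRE letters, from position −78 to −57 counted from the start. Cxcl10 held 1 ISRE match at −213 to −204 and NF-kappaB matches at −159 to −150 and −104 to −94, the last being 2 overlapping matches. Ifih1 held 1 ISRE match, 32 to 41 bases after the start, and Psmb8 held 1 GAS match at −97 to −89. None of the 3 sets of letters occurred in the Oasl2 window.

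Of the 39 members, 30 had a promoter in the table. The ISRE letters were in a promoter of 11 of them (36.7%), against 3.99% of all 27025 genes in the table and 3.44% of its 32851 promoters. The GAS letters were in 10 members (33.3%), against 9.55% of all genes and 8.3% of promoters, and an NF-kappaB site was in 6 members (20.0%), against 9.55% of genes and 8.46% of promoters. Genes with several annotated starts have several windows. The matches describe letters only and say nothing about binding in these cells.

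**Figure D1:**
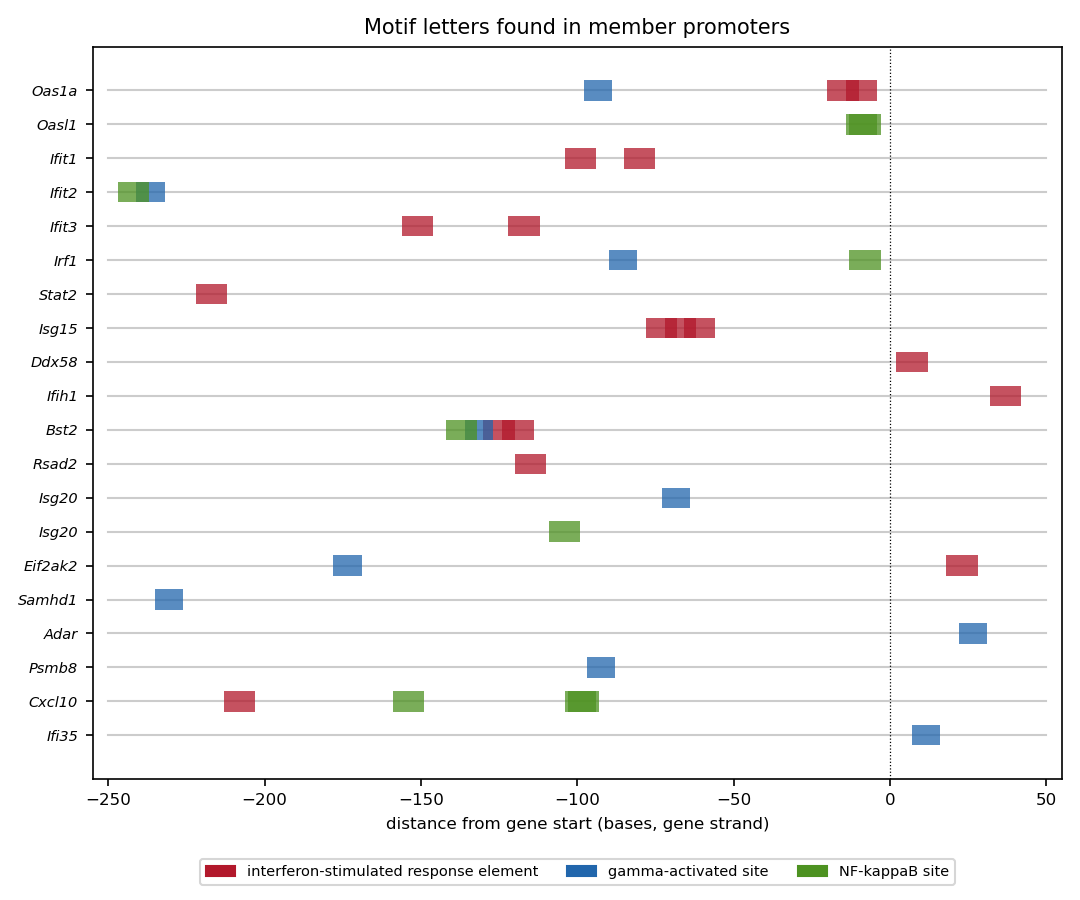
Positions of the 3 motifs in the members' promoters that hold at least 1. The horizontal axis is the distance from the annotated gene start in bases along the gene, each grey line is 1 window of 300 bases, and Isg20 has a line for each of its starts. ISRE matches (red) were found in windows of 11 members, GAS matches (blue) in 10 and NF-kappaB matches (green) in 6.

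Levels below are log2 of the processed signal relative to each array's 75th percentile, so a difference of 1 is a doubling. They compare samples for 1 gene and not genes with each other. Tests were limma's moderated test on all 25087 genes, and a gene was called changed at a Benjamini-Hochberg adjusted p under 0.05. In these bulk samples, fewer cells that express a gene and less RNA per cell cannot be told apart. Of the 39 members, 30 were well above background on all 15 arrays. Ifi44 was well above background on no array. Ifit1, which binds viral RNA that lacks the host cap, was well above background on 2 sh4 and 1 shCTR array with retinoic acid, and on no untreated array. Some tested members passed the filter on dim probes only through groups where they were high, namely Mx1 through untreated shCTR cells, and Ifit3 and Mx2 through the retinoic acid groups. Their calls follow in part from the filter.

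Without treatment, the interferon-stimulated genes moved in both directions in sh4 cells relative to shCTR cells. The antiviral gene Oasl2, the immunoproteasome subunit Psmb8, the chemokine Cxcl10, the ubiquitin-like protein Isg15 and the RNA sensor Ifih1 were at least 2-fold higher. Tap1, Rtp4 and Bst2 were also at least 2-fold higher. The synthetase Oas2, the apoptosis-related gene Xaf1 and Oasl1 were at least 2-fold lower, as was Mx1 by its fitted change. Of 37 members tested, 13 rose, 9 fell (Mx1 among them) and 15 were not called, where 14.4% of all genes were called higher, 14.1% lower and 28.6% changed. The median log2 change was 0.03 over the members and 0.02 over all genes.

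The oligoadenylate synthetase family senses double-stranded RNA, and its catalytic members make the messenger that activates RNase L. Its 4 members divided. Oasl2 had log2 levels of −3.92, −3.65, −3.75 and −3.77 on the untreated sh4 arrays, against −9.41, −7.79, −8.37 and −8.15 on the untreated shCTR arrays. The groups were far apart, and Oasl2 was not well above background on any untreated shCTR array. It was at least 15.4-fold higher in sh4 cells, with an adjusted p of 1.3e-08. Here and below, "at least" gives the undetected group the lowest signal that still counted as above background, and the adjusted p is that of the fitted change.

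Oasl1, its relative on the same chromosome, went the other way. Its levels were −2.27, −1.72, −1.63 and −1.78 in untreated sh4 cells, against −0.81, −0.51, −0.69 and −0.69 in untreated shCTR cells, and the groups did not overlap. The log2 change was −1.18 ± 0.12 (SE; adjusted p = 4.1e-06). Oas2, a catalytic synthetase, was at −0.91, −0.71, −0.87 and −0.84 in untreated sh4 cells, against 0.48, 0.83, 0.63 and 0.53 in untreated shCTR cells, a change of −1.45 ± 0.08 (adjusted p = 2.5e-08). Every sh4 array lay below every shCTR array for Oas2, and Oas1a, another catalytic member, fell by 0.71 ± 0.10 (adjusted p = 0.00012).

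Psmb8 replaces a standard catalytic subunit of the proteasome and favours peptides that fit MHC class I. Its levels were −2.51, −2.43, −2.12 and −2.33 in untreated sh4 cells, against −6.63, −6.24, −5.92 and −6.45 in untreated shCTR cells. The groups did not overlap, and Psmb8 was well above background on all of these arrays. The change was 3.96 ± 0.13 (adjusted p = 2.5e-10), a 15.6-fold difference. On the untreated shCTR arrays its signal was dim, with intensities of 15.6 to 26, which limits this size.

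Tap1 pairs with Tap2 to form the transporter that carries peptides into the endoplasmic reticulum. It had levels of −3.55, −3.32, −3.02 and −3.20 in untreated sh4 cells, against −5.22, −4.86, −4.86 and −4.83 in untreated shCTR cells, and rose by 1.67 ± 0.11 (adjusted p = 1.3e-07). The lowest sh4 array was above the highest shCTR array. Psmb9, another immunoproteasome subunit, rose by 0.31 ± 0.10 (adjusted p = 0.042), which was near the threshold.

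These genes lie side by side in the MHC region of chromosome 17, in the order Psmb9, Tap1, Psmb8 and Tap2 in the RefSeq annotation. The probes were at chr17:34319174-34319233 for Psmb9, chr17:34330854-34330913 for Tap1 and chr17:34337771-34337830 for Psmb8 on mm9. Psmb9 and Tap1 are read from opposite strands, and their promoter windows share 275 bases. The neighbour Tap2, the partner of Tap1 and not a member, rose by 1.17 ± 0.10 (adjusted p = 6.7e-07).

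Cxcl10 encodes a chemokine that attracts T cells. It was at −3.87, −3.56, −3.71 and −3.52 in untreated sh4 cells, against −6.69, −6.82, −6.35 and −6.74 in untreated shCTR cells, with no overlap. The difference was 2.98 ± 0.12 (adjusted p = 1.3e-09), which is 7.90-fold. Its signal on the untreated shCTR arrays was dim, with intensities of 14.1 to 19.4, which limits this size.

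Isg15 is conjugated to proteins during infection. Its levels were −1.27, −1.12, −1.06 and −1.13 in untreated sh4 cells, against −3.30, −4.24, −3.70 and −3.51 in untreated shCTR cells, and the difference was 2.54 ± 0.16 (adjusted p = 5.6e-08). The shCTR arrays varied more than the sh4 arrays, but the groups did not overlap. The second probe for Isg15 differed by 3.64, but it was well above background on only 11 of the 15 arrays. Usp18, the protease that removes Isg15 from proteins, and Trim25, a ubiquitin ligase that also joins Isg15 to proteins, were not called (−0.25 ± 0.13, adjusted p = 0.18, and −0.18 ± 0.10, adjusted p = 0.22).

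Among the sensors, Ifih1 was at −6.77, −6.79, −6.56 and −6.70 in untreated sh4 cells, against −9.88, −9.18, −8.25 and −7.79 in untreated shCTR cells, where it was not well above background on any array. It was at least 2.21-fold higher in sh4 cells (adjusted p = 0.00028). A second Ifih1 probe was not well above background on any of the 15 arrays. With normexp background correction the Ifih1 call was lost (adjusted p = 0.72). Ddx58 was not called (0.22 ± 0.08, adjusted p = 0.075), nor was the nucleic acid sensor Zbp1 (−0.52 ± 0.29, adjusted p = 0.24), and Dhx58, a helicase that modulates the other sensors, fell by 0.30 ± 0.09 (adjusted p = 0.023). With the mean over the probes of a gene, Ddx58 was called higher (0.21, adjusted p = 0.024) and Zbp1 lower (−0.63, adjusted p = 0.0086). Zbp1 was also called lower in the deposited table (−0.37, adjusted p = 0.0088).

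Among the other antiviral effectors, 2 of 10 rose and 2 fell. Rtp4, which is a receptor chaperone with antiviral activity, was at −5.51, −5.21, −5.22 and −5.33 in untreated sh4 cells, against −6.41, −6.77, −6.59 and −6.58 in untreated shCTR cells (1.27 ± 0.08, adjusted p = 8e-08). Bst2 (tetherin), which holds budding virus at the cell surface, was at 3.54, 3.60, 3.99 and 3.93 in untreated sh4 cells, against 2.45, 2.44, 2.83 and 2.81 in untreated shCTR cells (1.13 ± 0.13, adjusted p = 2.1e-05). The groups did not overlap for either gene, and the Rtp4 call was lost with normexp correction (adjusted p = 0.47).

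The dynamin-like GTPase Mx1 was at −7.51, −7.80, −6.89 and −7.12 in untreated sh4 cells, against −5.74, −6.61, −6.48 and −5.87 in untreated shCTR cells. It was well above background on 2 of the 4 sh4 arrays and on all 4 shCTR arrays. Its fitted change was −1.15 ± 0.39 (adjusted p = 0.043), in a gene that passed the filter only through the untreated shCTR arrays. Eif2ak2 (PKR), the kinase that halts translation on double-stranded RNA, fell by 0.44 ± 0.06 (adjusted p = 4.2e-05). The RNA editor Adar, the nucleotide hydrolase Samhd1, the nucleotide kinase Cmpk2, Rsad2 (viperin), Mx2 and the exonuclease Isg20 had changes between −0.04 and 0.19 and were not called.

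Xaf1, an antagonist of apoptosis inhibitors, showed the largest fall among the tested members. It was at −0.66, −0.97, −1.0 and −0.82 in untreated sh4 cells, against 1.14, 0.93, 1.11 and 1.18 in untreated shCTR cells (−1.96 ± 0.08, adjusted p = 1.2e-09). The groups did not overlap, and its second probe differed by −1.56. Ifi35 fell by 0.52 ± 0.08 (adjusted p = 0.00012). Lgals3bp, a secreted glycoprotein, was not called (0.25 ± 0.14, adjusted p = 0.24).

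Among the transcription factors of the response, Irf1 was at 2.63, 2.58, 2.56 and 2.58 in untreated sh4 cells, against 1.83, 1.31, 1.66 and 1.63 in untreated shCTR cells (0.98 ± 0.09, adjusted p = 1.6e-06). All sh4 arrays lay above all shCTR arrays. Irf9 fell by 0.28 ± 0.07 (adjusted p = 0.0054). Stat2 and Irf7, the regulator that amplifies interferon production, were not called (−0.16 ± 0.13, adjusted p = 0.46, and −0.34 ± 0.21, adjusted p = 0.29). Ifit2 (0.39 ± 0.10, adjusted p = 0.011), the ADP-ribosyltransferase Parp9 (0.32 ± 0.08, adjusted p = 0.0071) and its partner ligase Dtx3l (0.27 ± 0.09, adjusted p = 0.043) rose by less than 2-fold, while Ifit3 (0.30 ± 0.42, adjusted p = 0.71) and Parp14 (−0.01 ± 0.09, adjusted p = 0.97) were not called.

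Small or dim changes depended on the processing. The Parp9 call was lost with normexp correction and in the deposited table (adjusted p of 0.084 to 0.11), and that of Ifit2 with quantile normalisation, in the deposited table and without the arrays rated for evaluation (0.086 to 0.26). With normexp correction the Ifit2 change turned to −0.01. Without each of several single untreated arrays in turn the calls of Psmb9 (sh4 replicates 3 and 4, shCTR replicates 1 to 3), Dtx3l (sh4 replicates 1, 3 and 4, shCTR replicates 1 to 4), Dhx58 (sh4 replicate 1, shCTR replicates 2 and 3) and Mx1 (sh4 replicates 1, 2 and 4, shCTR replicates 1, 3 and 4) were lost, with highest adjusted p over all settings of 0.20, 0.31, 0.097 and 0.17. Psmb9, Dtx3l and Mx1 were also lost without 4, 3 and 2 single retinoic acid arrays, which enter the shared spread. With normexp background correction, which holds dim values up by an offset of 50, the changes of Oasl2, Psmb8, Cxcl10 and Tap1 kept their calls at log2 sizes of 1.06, 2.05, 1.13 and 0.84.

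**Figure D2:**
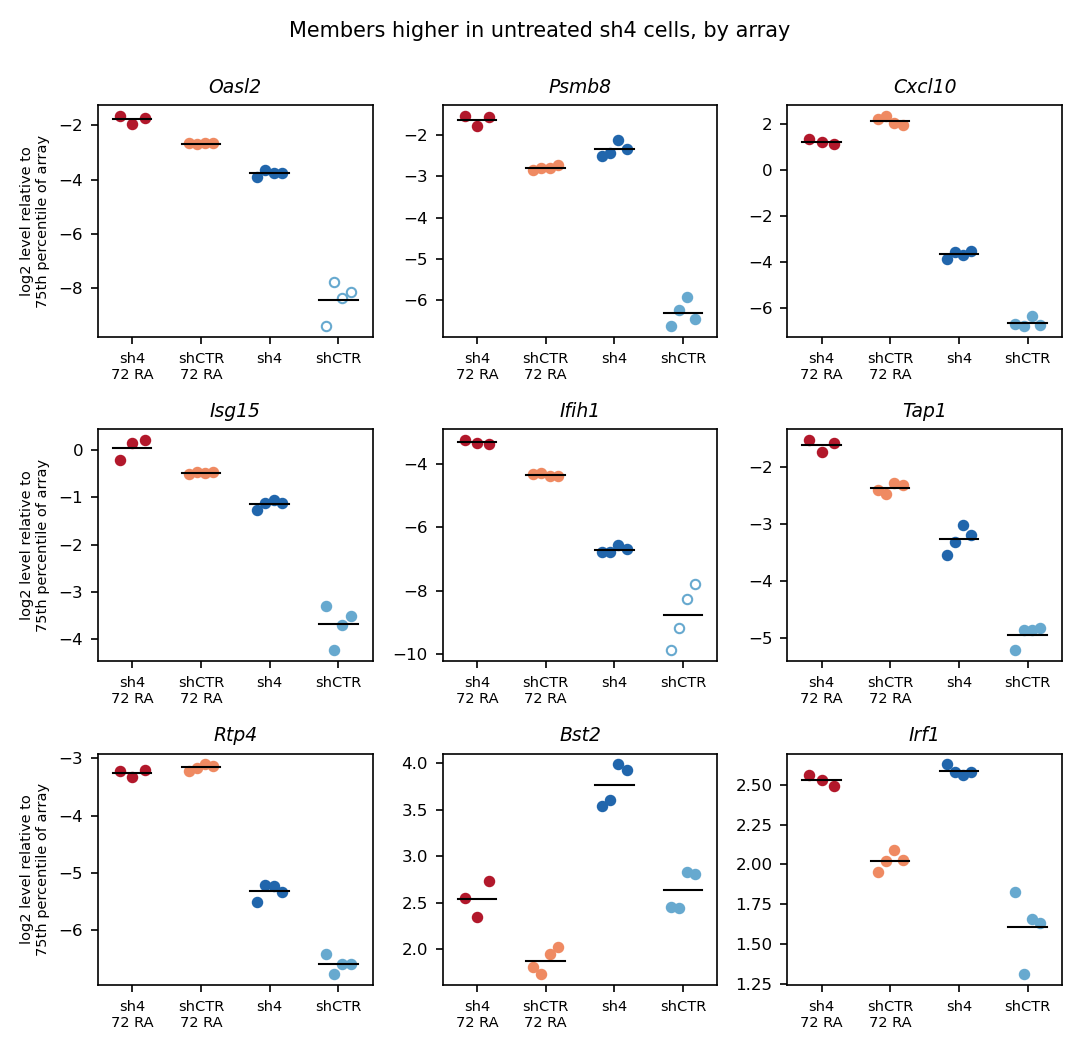
Log2 level relative to the 75th percentile of the array (vertical axis) for 9 members in 4 groups (horizontal axis). Each circle is 1 array, open where the probe was not well above background, and the line is the group mean. In untreated sh4 cells all 9 genes lay above untreated shCTR cells, as for Cxcl10 at −3.87 to −3.52 against −6.82 to −6.35.

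The genes upstream of the members were counted from lists of the pathway. Of 6 interferon ligand genes tested, 0 rose and 1 fell in untreated sh4 cells. This was Ifng, at least 1.78-fold lower (adjusted p = 3e-06), which was not well above background on any untreated sh4 array. Of 11 receptor and JAK-STAT genes 2 rose and 2 fell, all by less than 2-fold. Of 11 sensors and adaptors upstream of interferon 0 rose and 3 fell, among them Irf5 (−1.45 ± 0.15, adjusted p = 4.6e-06). Irf2, which competes with Irf1 for promoter sites, was 1 of 2 further interferon regulatory factors of 4 that rose, at least 1.56-fold (adjusted p = 5e-07).

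Antigen presentation genes outside the members rose in 4 of 12 cases and fell in 0. Tap2 and B2m (0.69 ± 0.08, adjusted p = 2.6e-05), the invariant chain of MHC class I, were among them, as was Erap1, which trims peptides, at least 1.04-fold higher (adjusted p = 6.5e-05). Of the untreated arrays, Erap1 was well above background on sh4 replicate 4 only, so this call compares groups near background. Of 22 further interferon-stimulated genes tested 9 rose and 6 fell, with Herc6 (Herc5 on the array), a ligase that joins Isg15 to proteins, at least 1.97-fold higher (adjusted p = 0.042), which passed the filter only through untreated sh4 cells. Of 16 NF-kappaB targets and chemokines 6 rose and 2 fell. The chemokines Cxcl1 (at least 1.18-fold, adjusted p = 0.00064) and Ccl2 (1.05 ± 0.17, adjusted p = 0.00031) rose, and the cytokine Il6, which passed the filter only through untreated shCTR cells, had a change of −1.5 ± 0.27 (adjusted p = 0.00085). Of 6 negative regulators 0 rose and 2 fell.

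Markers of other cell types moved with these changes. All 7 trophectoderm markers on the array rose in untreated sh4 cells, with a median of 3.69, and their summed signal was 72.5 to 82.9 times the 75th percentile in untreated sh4 cells, against 4.70 to 6.26 times in untreated shCTR cells, where Elf5 was not well above background. Of 10 endoderm markers 7 fell and 0 rose, with sums of 0.614 to 0.729 in untreated sh4 cells and 1.54 to 1.69 in untreated shCTR cells. Among 8 ES cell markers 2 fell and 0 rose, with a median of −0.32. Their sums were 305 to 344 in untreated sh4 cells and 324 to 405 in untreated shCTR cells. Fibroblast markers divided, 4 up and 4 down of 10, with sums of 1.19 to 1.42 in untreated sh4 cells and 2.92 to 3.34 in untreated shCTR cells. Their part in the results for the interferon-stimulated genes was not tested. Of 9 macrophage and blood markers 0 rose and 1 fell, with sums of 3.94 to 5.96 in untreated sh4 cells and 4.10 to 5.73 in untreated shCTR cells, and Lyz2 was not well above background on any of the 15 arrays.

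In retinoic acid, 1 called member differed by 2-fold or more between the hairpins, and the share of all genes at that cut was not counted. Of 37 members 13 rose in sh4 cells relative to shCTR cells, 4 fell and 20 were not called, where 10.9% of all genes were called higher, 10.3% lower and 21.2% changed. The median was 0.08 over the members and 0.04 over all genes. The 1 member was Psmb8. All 3 antigen-processing members rose.

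Psmb8 was at −1.54, −1.78 and −1.57 in sh4 cells with retinoic acid, against −2.85, −2.80, −2.79 and −2.72 in shCTR cells with retinoic acid (1.16 ± 0.14, adjusted p = 6.4e-05). Tap1 was at −1.53, −1.74 and −1.59 in sh4 cells with retinoic acid, against −2.40, −2.47, −2.29 and −2.32 in shCTR cells with retinoic acid (0.75 ± 0.12, adjusted p = 0.00064). The groups did not overlap for either gene. Psmb9 rose by 0.51 ± 0.11 (adjusted p = 0.005).

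Cxcl10 had the opposite sign to that in untreated cells. Its levels were 1.36, 1.21 and 1.11 in sh4 cells with retinoic acid, against 2.23, 2.35, 2.05 and 1.94 in shCTR cells with retinoic acid, and it fell by 0.91 ± 0.13 (adjusted p = 0.00023). The groups did not overlap. The other members that fell were Xaf1, Oas1a and Oas2, by 0.74 ± 0.09, 0.57 ± 0.11 and 0.50 ± 0.09 (adjusted p = 3.7e-05, 0.0021 and 0.0014).

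Oasl2 was at −1.66, −1.95 and −1.73 in sh4 cells with retinoic acid, against −2.66, −2.70, −2.67 and −2.67 in shCTR cells with retinoic acid (0.90 ± 0.27, adjusted p = 0.03). The arrays did not overlap, but the call was lost without the 3 arrays rated for evaluation and without sh4 replicate 1 or 4 or any 1 of the 4 shCTR arrays with retinoic acid, with adjusted p of 0.058 to 0.1. Isg15 was at −0.21, 0.15 and 0.21 in sh4 cells with retinoic acid, against −0.51, −0.46, −0.48 and −0.46 in shCTR cells with retinoic acid (0.53 ± 0.17, adjusted p = 0.047), and its call was lost under 16 other settings (adjusted p of 0.052 to 0.16), among them slide as a block, the replicate block and leaving out any 1 of 12 arrays. These were sh4 replicates 3 and 4 and all 4 shCTR arrays in retinoic acid, all 4 untreated sh4 arrays, and untreated shCTR replicates 3 and 4. Ifih1 was at −3.26, −3.36 and −3.39 in sh4 cells with retinoic acid, against −4.32, −4.29, −4.39 and −4.40 in shCTR cells with retinoic acid, without overlap but also without a call (1.01 ± 0.35, adjusted p = 0.061). It was called with normexp correction (0.67, adjusted p = 0.012) and in the deposited table (0.64, adjusted p = 3.4e-06). Rtp4 was not called (−0.10 ± 0.09, adjusted p = 0.57).

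The remaining called members rose by 0.27 to 0.72, namely Parp9, Bst2, Ifi35, Dtx3l, Irf1, Irf9, Ddx58 and Samhd1. The Samhd1 probes disagreed, since the second one differed by −0.09. The Ddx58 call (0.29 ± 0.09, adjusted p = 0.037) was lost without any 1 of the 3 sh4 arrays or of shCTR replicates 1 to 3 with retinoic acid, with adjusted p up to 0.3 over all settings. Among upstream genes, Ifng and Ifnk (interferon kappa) fell by 1.09 ± 0.24 and 1.13 ± 0.32 (adjusted p = 0.0047 and 0.022), and Irf4, a factor of lymphoid cells that passed the filter only through shCTR cells with retinoic acid, had a change of −1.77 ± 0.45 (adjusted p = 0.012).

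Of 12 antigen presentation genes outside the members 8 rose and 0 fell, with Erap1 at 1.21 ± 0.25 (adjusted p = 0.0033) and the class I heavy chain H2-K1 at 0.35 ± 0.07 (adjusted p = 0.0018). Of 22 further interferon-stimulated genes 4 rose and 6 fell, with Lgals9, a galectin, down by 2.44 ± 0.16 (adjusted p = 2.6e-07). Of 16 NF-kappaB targets and chemokines 0 rose and 3 fell, the cytokine Il18 by 1.69 ± 0.12 (adjusted p = 4.1e-07). All 10 endoderm markers fell, with sums of 12.5 to 12.9 in sh4 cells with retinoic acid and 50.9 to 60.1 in shCTR cells with retinoic acid. Of 8 ES cell markers 1 rose and 6 fell, with a median of −0.93 and sums of 53.2 to 64.2 in sh4 cells with retinoic acid and 97.6 to 106 in shCTR cells with retinoic acid. Of 7 trophectoderm markers 1 rose and 3 fell, of 10 fibroblast markers 1 rose and 1 fell, and of 7 endothelial markers 0 rose and 2 fell. Of 9 macrophage and blood markers 4 fell, with sums of 3.08 to 5.15 in sh4 cells with retinoic acid and 4.20 to 5.21 in shCTR cells with retinoic acid. The part of these cell types in the results was not tested.

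**Figure D3:**
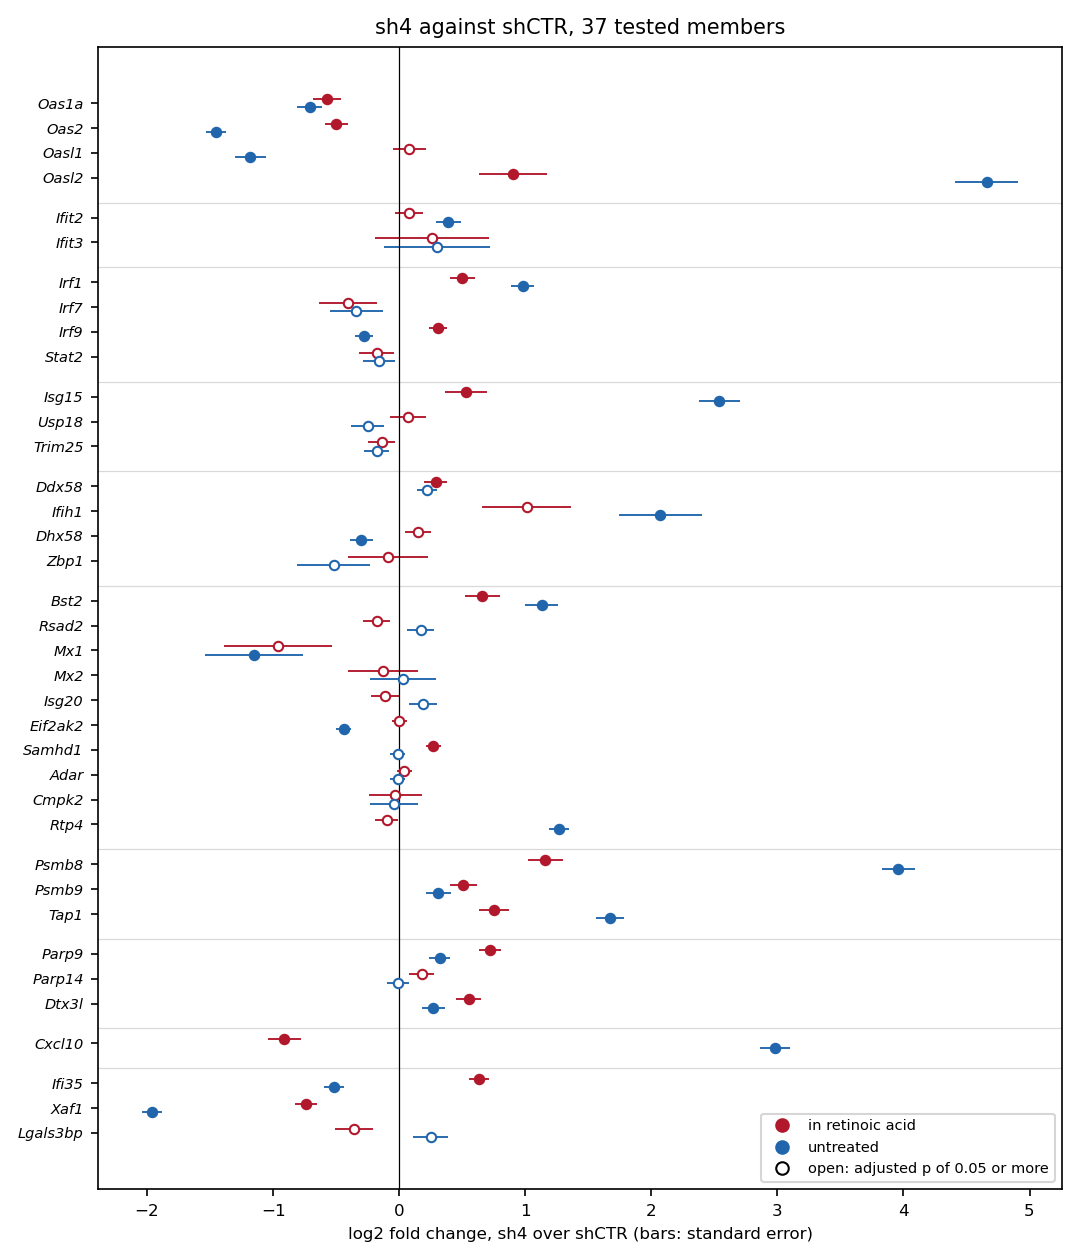
Log2 fold change of sh4 over shCTR (horizontal axis, bars are standard errors) for the 37 tested members, grouped by role down the page, in retinoic acid (red) and in untreated cells (blue). Open circles missed the threshold. Psmb8, Cxcl10 and Isg15 stand at 3.96, 2.98 and 2.54 in untreated cells, and at 1.16, −0.91 and 0.53 in retinoic acid. The points of Oasl2 and Ifih1 in untreated cells are fitted against arrays not well above background, so their place on the axis is not a measured size.

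The difference between the 2 hairpin effects was tested as an interaction, the effect in retinoic acid minus that in untreated cells. It was called in 16 of 37 members, 9 higher and 7 lower, where 10.2% of all genes were called higher, 10.2% lower and 20.5% changed. The median was 0.05 over the members and 0.01 over all genes. Cxcl10 (−3.89 ± 0.18, adjusted p = 1.4e-08), Psmb8 (−2.80 ± 0.20, adjusted p = 5e-07), Isg15 (−2.02 ± 0.24, adjusted p = 4.6e-05) and Rtp4 (−1.37 ± 0.12, adjusted p = 4.4e-06) had the largest negative terms among members measured in all groups. Cxcl10 was higher with sh4 in untreated cells and lower with sh4 in retinoic acid, and the others had a larger rise or a rise only called in untreated cells. The Oasl2 term was also negative and called (adjusted p = 9.2e-06), but its size is not given because Oasl2 was not well above background on any untreated shCTR array. For Ifih1, not well above background on the same arrays, the interaction was not called (adjusted p = 0.16). With normexp correction the terms of Cxcl10, Psmb8 and Isg15 kept their calls at −2.01, −1.09 and −1.45, and those of Oasl2, Rtp4 and Tap1 did not, at −0.28, −0.16 and −0.20 (adjusted p = 0.49, 0.68 and 0.56).

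Positive terms above 1 were those of Oasl1 (1.26 ± 0.17, adjusted p = 0.00016), Xaf1 (1.21 ± 0.12, adjusted p = 8.5e-06) and Ifi35 (1.15 ± 0.11, adjusted p = 7.9e-06). Ifi35 crossed zero. It was at −0.83, −0.99 and −0.66 in sh4 cells with retinoic acid, against −1.53, −1.49, −1.35 and −1.48 in shCTR cells with retinoic acid (0.63 ± 0.08, adjusted p = 8.9e-05). In untreated cells it was at −1.51, −1.44, −1.47 and −1.48 with sh4, against −1.07, −0.94, −0.96 and −0.85 with shCTR. Irf9 likewise was higher with sh4 in retinoic acid (0.31 ± 0.07, adjusted p = 0.006) and lower with sh4 in untreated cells, with an interaction of 0.59 ± 0.10 (adjusted p = 0.00064).

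Retinoic acid moved nearly all members, as it did most genes. In shCTR cells 18 of 37 members rose, 18 fell and 1 was not called, where 29% of all genes were called higher, 33.5% lower and 62.4% changed. In sh4 cells 20 rose, 14 fell and 3 were not called, where 27.1% were called higher, 31.6% lower and 58.7% changed. The median over the members was 0.31 in sh4 cells and −0.09 in shCTR cells, and over all genes −0.12 in each. Taking the 75th percentile over probes detected on all arrays instead brought the medians of all genes to −0.002 in sh4 cells and 0.005 in shCTR cells, so changes near that size depend on the scaling. With normexp correction 36.3% of the calls in shCTR cells were higher, against 46.4% as reported.

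Cxcl10 had the largest rise of the tested members in both hairpins. It rose by 4.90 ± 0.13 in sh4 cells (adjusted p = 2.6e-12) and by 8.79 ± 0.12 in shCTR cells (adjusted p = 5.6e-15), which is 29.8-fold and 443-fold. The dim signal of Cxcl10 on the untreated shCTR arrays, with intensities of 14.1 to 19.4, limits the size in shCTR cells. Oasl2 rose by 2.00 ± 0.27 in sh4 cells (adjusted p = 2e-05) and at least 33.0-fold in shCTR cells (adjusted p = 1.5e-10). Psmb8 rose by 0.72 ± 0.14 in sh4 cells and by 3.52 ± 0.13 in shCTR cells (adjusted p = 0.00064 and 3.7e-11). Isg15 rose by 1.19 ± 0.17 and 3.21 ± 0.16, Rtp4 by 2.06 ± 0.09 and 3.43 ± 0.08, and Tap1 by 1.65 ± 0.12 and 2.57 ± 0.11, each in sh4 and then shCTR cells (adjusted p of 4.2e-05 or less). The retinoic acid effect in shCTR cells and the hairpin effect in untreated cells share the untreated shCTR arrays.

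Usp18 rose in both hairpins with no called difference between them. It was at −2.39, −2.46 and −2.36 in sh4 cells with retinoic acid, against −6.41, −6.53, −6.90 and −6.30 in untreated sh4 cells (4.14 ± 0.14, adjusted p = 1.6e-11). It was at −2.55, −2.57, −2.43 and −2.34 in shCTR cells with retinoic acid, against −6.07, −6.16, −6.50 and −6.41 in untreated shCTR cells (3.81 ± 0.13, adjusted p = 1e-11). The treated and untreated arrays did not overlap, and the interaction was 0.32 ± 0.19 (adjusted p = 0.29). Untreated intensities of Usp18 were dim, at 12.8 to 24.2 with sh4 and 17.5 to 24 with shCTR, which limits these sizes. Ifih1 rose by 3.37 ± 0.35 in sh4 cells (adjusted p = 1.8e-06) and at least 11.3-fold in shCTR cells (adjusted p = 4e-08).

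Ifit3, which works with Ifit1 against viral RNA, was at −6.73, −6.87 and −6.78 in sh4 cells with retinoic acid, against −9.76, −7.89, −8.58 and −7.79 in untreated sh4 cells, where it was well above background on 1 of 4 arrays. The fitted change was 1.71 ± 0.45 (adjusted p = 0.0048, and 0.38 with normexp correction). It was at −6.96, −7.50, −6.84 and −6.93 in shCTR cells with retinoic acid, at least 1.72-fold above untreated shCTR cells, where it was not well above background (adjusted p = 0.0022). The treated and untreated groups did not overlap. Irf7 was at −6.53, −5.95 and −6.08 in sh4 cells with retinoic acid, against −7.65, −6.51, −7.41 and −7.00 in untreated sh4 cells (0.96 ± 0.23, adjusted p = 0.0024), and these groups overlapped on 1 array. It rose by 1.02 ± 0.21 in shCTR cells (adjusted p = 0.00076). With normexp correction the rises of Ifit3, Irf7 and Cmpk2 in shCTR cells turned to −0.09, −0.03 and −0.10. The Irf7 call in sh4 cells was lost with normexp correction and in the deposited table (adjusted p of 0.062 to 0.52).

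Mx2, Lgals3bp, Rsad2, Cmpk2, Isg20 and Eif2ak2 rose in both hairpins, by 0.80 to 1.88 in sh4 cells and by 0.85 to 2.04 in shCTR cells. With normexp correction the calls of Rsad2 (adjusted p = 0.13 in sh4 and 0.2 in shCTR cells) and Mx2 (0.052 and 0.085) were lost, as was that of Cmpk2 in sh4 cells (0.58). The deposited table also lost Cmpk2 in sh4 (0.051) and shCTR cells (0.083). Ifit2 rose by 0.31 ± 0.11 in sh4 cells and by 0.62 ± 0.10 in shCTR cells (adjusted p = 0.027 and 0.00012). Its call in shCTR cells was lost with quantile normalisation, with normexp correction and in the deposited table (adjusted p of 0.051 to 0.81). The Ifit2 call in sh4 cells was lost under the same settings. Irf1 rose in shCTR cells (0.42 ± 0.09, adjusted p = 9e-04) and was not called in sh4 cells (−0.06 ± 0.10, adjusted p = 0.6). Samhd1 rose by 0.19 ± 0.06 in sh4 cells (adjusted p = 0.015; −0.02 with the mean over its probes) and was not called in shCTR cells (−0.09 ± 0.06, adjusted p = 0.2), and Dhx58 fell by 0.56 ± 0.09 in shCTR cells (adjusted p = 9e-05) and was not called in sh4 cells (−0.11 ± 0.10, adjusted p = 0.36). The second Lgals3bp probe differed by 0.28 in sh4 cells and 0.85 in shCTR cells, against 1.07 and 1.68 by the first.

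The members that fell included Oas2 and Oas1a. Oas2 was at −3.22, −3.31 and −3.05 in sh4 cells with retinoic acid, against −0.91, −0.71, −0.87 and −0.84 in untreated sh4 cells (−2.36 ± 0.09, adjusted p = 6.7e-11). It was at −2.75, −2.62, −2.73 and −2.70 in shCTR cells with retinoic acid, against 0.48, 0.83, 0.63 and 0.53 in untreated shCTR cells (−3.32 ± 0.08, adjusted p = 7.7e-13). No treated array reached the level of an untreated one. Oas1a fell by 1.81 ± 0.11 in sh4 cells and by 1.95 ± 0.10 in shCTR cells (adjusted p = 7.1e-09 and 1.1e-09). Oasl1 fell by 1.35 ± 0.12 in shCTR cells (adjusted p = 2.1e-07) and was not called in sh4 cells (−0.09 ± 0.13, adjusted p = 0.59).

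All 3 PARP and ligase members fell in both hairpins. Parp14 was at −2.56, −2.53 and −2.31 in sh4 cells with retinoic acid, against −0.49, −0.38, −0.20 and −0.42 in untreated sh4 cells (−2.10 ± 0.10, adjusted p = 6.5e-10). It was at −2.84, −2.63, −2.66 and −2.46 in shCTR cells with retinoic acid, against −0.44, −0.45, −0.27 and −0.29 in untreated shCTR cells (−2.28 ± 0.09, adjusted p = 9.1e-11). The groups did not overlap in either hairpin. Parp9 and Dtx3l fell by 0.76 ± 0.09 and 1.33 ± 0.10 in sh4 cells, and by 1.16 ± 0.08 and 1.61 ± 0.09 in shCTR cells (adjusted p of 3.1e-06 or less).

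Adar, Ddx58, Trim25, Zbp1, Mx1, Bst2, Xaf1, Psmb9 and Stat2 also fell in both hairpins. Xaf1 fell by 0.72 ± 0.09 in sh4 cells and by 1.94 ± 0.08 in shCTR cells (adjusted p = 5.9e-06 and 9e-11). Psmb9 fell by 0.53 ± 0.11 and 0.74 ± 0.10 while its neighbours Tap1 and Psmb8 rose. Mx1 was not well above background on any treated array and was at least 1.41-fold lower in sh4 cells and at least 3.07-fold lower in shCTR cells with retinoic acid (adjusted p = 0.0066 and 0.0016). In sh4 cells the treated and untreated arrays overlapped for Mx1, and only 2 of the 4 untreated arrays were well above background, so that bound is not firm. The Mx1 call in sh4 cells was lost with normexp correction, in the deposited table and without the arrays rated for evaluation (adjusted p of 0.084 to 0.44). Ifi35 and Irf9 rose in sh4 cells, by 0.65 ± 0.08 and 0.41 ± 0.07, and fell in shCTR cells, by 0.50 ± 0.08 and 0.19 ± 0.07.

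Several of these calls rested on single arrays. In sh4 cells those of Ifit2 (without sh4 replicate 3 or 4 in retinoic acid or untreated replicate 1), Stat2 (without replicate 1 or 3 of either sh4 group), Samhd1 (without replicate 1 in retinoic acid) and Zbp1 (without replicate 4 in retinoic acid) were lost, with adjusted p up to 0.59, 0.14, 0.08 and 0.085 over all settings. In shCTR cells those of Irf9 (without replicate 1 or 2 in retinoic acid or untreated replicate 4) and Stat2 (without replicate 2 in retinoic acid or untreated replicate 1 or 2) were lost, with adjusted p up to 0.44 and 0.15.

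Markers of cell identity moved with retinoic acid as well. Of 8 ES cell markers 8 fell in sh4 cells and 7 in shCTR cells. Of 7 trophectoderm markers 5 rose and 2 fell in sh4 cells, and all 7 rose in shCTR cells. Their sum was 269 to 328 in treated sh4 cells, against 72.5 to 82.9 in untreated sh4 cells, and 296 to 321 in treated shCTR cells, against 4.70 to 6.26 in untreated shCTR cells. The sum of endoderm markers was 12.5 to 12.9 in treated sh4 cells, against 0.614 to 0.729 in untreated sh4 cells, and 50.9 to 60.1 in treated shCTR cells, against 1.54 to 1.69 in untreated shCTR cells. Of 10 fibroblast markers 9 rose and 1 fell in each hairpin, with medians of 3.59 in sh4 cells and 3.96 in shCTR cells. Their sum was 9.93 to 10.5 in treated sh4 cells, against 1.19 to 1.42 in untreated sh4 cells, and 7.94 to 9.96 in treated shCTR cells, against 2.92 to 3.34 in untreated shCTR cells. The part of these cell types in the results was not tested.

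**Figure D4:**
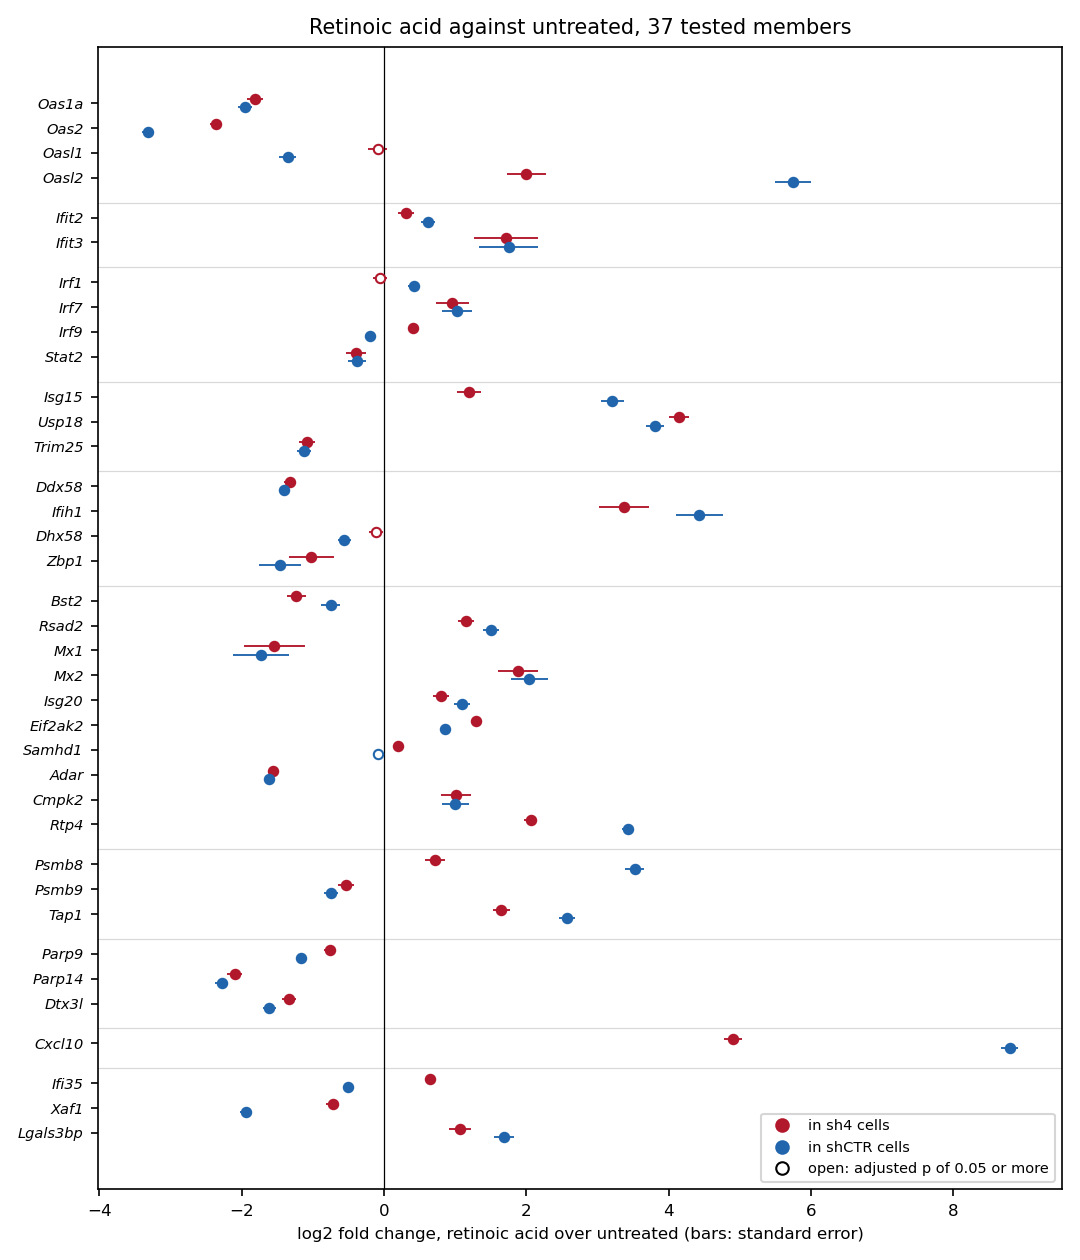
Log2 fold change of retinoic acid over untreated (horizontal axis, bars are standard errors) for the 37 tested members, grouped by role down the page, in sh4 cells (red) and shCTR cells (blue). Open circles missed the threshold. Cxcl10 stands at 4.90 in sh4 cells and 8.79 in shCTR cells, and Oas2 at −2.36 and −3.32.

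Of the 37 tested members, 12 had their highest mean level in sh4 cells in retinoic acid, 8 in shCTR cells in retinoic acid, 6 in untreated sh4 cells and 11 in untreated shCTR cells. The shares of all genes by highest group were not counted, so these counts set the members apart from no other genes. By mean level, Oasl2, Isg15, Ifih1, Tap1, Ifit2 and Ifit3 followed 1 order. In it sh4 in retinoic acid was highest, then shCTR in retinoic acid, untreated sh4 and untreated shCTR. Psmb8 differed in that untreated sh4 stood above shCTR with retinoic acid. Oas2, Oas1a, Mx1, Stat2, Trim25 and Zbp1 followed another, with untreated shCTR on top, then untreated sh4, and the treated groups lowest, shCTR above sh4. With retinoic acid, Ifih1, Ifit2, Ifit3, Mx1, Stat2, Trim25 and Zbp1 were not called between the hairpins. The calls of Oasl2 and Isg15 there were lost under other settings. Without treatment, Ifit3, Stat2, Trim25 and Zbp1 were not called between the hairpins, though Zbp1 was called lower under other settings. For Rtp4 the 2 treated groups overlapped, and for Oasl1 sh4 and shCTR with retinoic acid lay at −2.0 to −1.88 and −2.06 to −2.0.

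**Figure D5:**
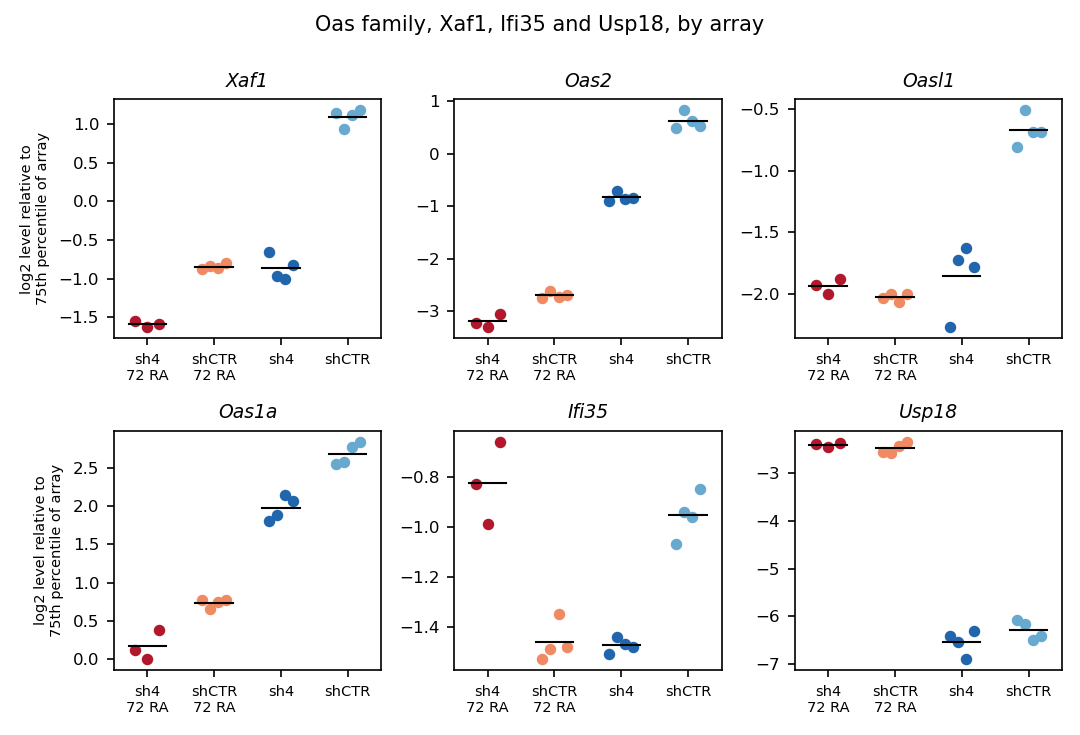
Log2 level relative to the 75th percentile of the array (vertical axis) for Xaf1, 3 synthetase genes, Ifi35 and Usp18 in 4 groups (horizontal axis), 1 circle per array, open where not well above background, with the group mean as a line. Oas2 lay at −3.31 to −3.05 in sh4 with retinoic acid, −2.75 to −2.62 in shCTR with retinoic acid, −0.91 to −0.71 in untreated sh4 and 0.48 to 0.83 in untreated shCTR.

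Slides held arrays of several groups. With slide as a block, 21 of the 22 members called in untreated cells and 16 of the 17 called in retinoic acid were called with the same sign, as were all 36, 34 and 16 of the retinoic acid effects in shCTR cells and in sh4 cells and of the interaction. The missing calls were Mx1 in untreated cells and Isg15 in retinoic acid. Within every slide the sign was the same for all 22 members in untreated cells and all 17 in retinoic acid. It was also the same for 35 of the 36 members called for retinoic acid in shCTR cells and for 33 of 34 in sh4 cells, where Mx1 ranged from −2.68 to 0.1. These members were called on the same arrays, so the agreement in sign follows in part from the calls and is no separate check. The share over all called genes was not counted. For Psmb8 the within-slide hairpin differences were 1.03 to 1.31 in retinoic acid and 3.81 to 4.12 in untreated cells.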

How the data were processed

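RNA of 15 mouse ES cell samples, 500 ng each, was hybridised to Agilent 1-colour arrays. The deposited scanner files hold spot intensities from Feature Extraction 10.7.3.1, per the file headers, background-subtracted and not scaled between arrays. Log2 values per probe were deposited too, with no processing given in the sources used. They equal normexp correction (offset 50) with quantile normalisation to a median difference of 3.4e-10 and served as an alternative only.

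From 43020 non-control spots, 39312 probes were used after averaging spots and dropping 117 without an unmarked spot on some array. Log2 processed intensities were set relative to each array's 75th percentile. The 25087 genes tested had a probe detected well above background on 3 or more arrays of a group. limma 3.58.1 (R 4.3.3, data.table, version 1.17.8) fitted the 4 groups over all arrays, with two-sided tests and Benjamini-Hochberg adjustment over all genes. The fit was tested on simulated data. Motif searches and figures used Python 3.11.15, pandas 2.3.3 and matplotlib 3.10.9. Gene names and probe positions (mm9) are the files' own.

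Arrays on one slide deviated from their group means together (r of 0.115 to 0.607 in all 21 pairs), so slide was tried as a block. Other alternatives were the normalisation, background correction, filter, probe choice, samples entering the fit and each array left out. Their effect is given in the closing section.

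The members and the pathway and marker lists were chosen with earlier results of these data known. Members past the threshold with a log2 change of at least 1 in a hairpin comparison or the interaction, and the member with the largest change in each role, are given by array. Pathway genes are named where they passed the threshold with a log2 change of at least 1 between hairpins. Others named, such as B2m and H2-K1, were chosen after their values were seen. The number of arrays limits the precision.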

Additional observations from a re-analysis of the deposited data

Results flagged for a closer look

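Among 111 tested combinations of a gene and a group of 4 arrays, 3 held an array far from the other 3, and chance alone flags about 1 in 20. Dhx58 was at −3.49 in untreated sh4 replicate 1, where the other arrays were at −3.18 to −3.14. In untreated shCTR replicate 1, Tap1 was at −5.22, where the others were at −4.86 to −4.83, and Lgals3bp was at −4.57, where the others were at −4.27 to −4.22.

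The hairpin effect differed between retinoic acid and untreated cells, by the interaction term of limma at an adjusted p under 0.05, in 16 members. The log2 term, retinoic acid minus untreated, was negative for Cxcl10 (−3.89), Oasl2 (−3.76, fitted against untreated shCTR arrays not well above background), Psmb8 (−2.80), Isg15 (−2.02), Rtp4 (−1.37), Tap1 (−0.92) and Irf1 (−0.48). It was positive for Oasl1 (1.26), Xaf1 (1.21), Ifi35 (1.15), Oas2 (0.96), Irf9 (0.59), Dhx58 (0.45), Eif2ak2 (0.44), Parp9 (0.40) and Samhd1 (0.28). The sign of these terms was the same within each of the 3 slides that held all 4 groups, which follows in part from the calls on the same arrays. The calls of Dhx58, Parp9 and Samhd1 rested on single arrays. That of Dhx58 was lost without sh4 or shCTR replicate 1 or 3 in retinoic acid or untreated shCTR replicate 2 or 3, and that of Parp9 without sh4 replicate 1 or 3 or shCTR replicate 1, 3 or 4 in retinoic acid, untreated sh4 replicate 4 or untreated shCTR replicate 2. That of Samhd1 was lost without sh4 or shCTR replicate 1 or 3 in retinoic acid, untreated sh4 replicate 1, 2 or 4 or untreated shCTR replicate 2. Their highest adjusted p over all settings was 0.091, 0.18 and 0.57.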

How the results depend on the processing

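Of the member values recomputed under the alternatives, 4502 kept their direction and their side of the threshold or moved by less than the spread, 169 lost a call, 33 gained one, 28 moved and 6 reversed. With normexp background correction 4639 genes and 8 members higher were called in untreated cells (7166 and 13 as reported), 3392 genes in retinoic acid (5325), and 3048 genes and 4 members lower for the interaction (5135 and 7). With it Ifit2 between hairpins in untreated cells turned to −0.01, and Ifit3, Irf7 and Cmpk2 with retinoic acid in shCTR cells to −0.09, −0.03 and −0.10. The Samhd1 rise with retinoic acid in sh4 cells turned to −0.02 with the mean over probes, and the Ifih1 interaction to 0.36 in the deposited table (adjusted p = 0.0072). The cause was not tested.

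Leaving out 1 array at a time gave 6353 to 7111 genes, 11 to 13 members higher and 7 to 9 lower in untreated cells, and 3948 to 5392 genes, 10 to 14 higher and 4 to 5 lower in retinoic acid. It gave 15091 to 15782 genes, 18 higher and 16 to 18 lower for retinoic acid in shCTR cells, 13850 to 14772 genes, 19 to 20 higher and 13 to 14 lower in sh4 cells, and 4283 to 4957 genes, 6 to 9 higher and 7 to 9 lower for the interaction. In sh4 cells the retinoic acid call of Zbp1 was lost without sh4 replicate 4 with retinoic acid (adjusted p = 0.085).

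Arrays of one replicate number deviated together in 18 of 21 pairs, with r of −0.533 to 0.578, so the numbers were not taken as pairs. With the replicate block 8158 genes were called in untreated cells, 6297 in retinoic acid, 16730 and 15619 for retinoic acid in shCTR and sh4 cells, and 6005 for the interaction. Signals near background limit the sizes given for Oasl2, Ifih1, Mx1 and the IFIT genes. Dim signal in untreated shCTR cells also limits those of Cxcl10, Psmb8, Rtp4 and Usp18. The fit on the groups compared alone was not run for the interaction, which uses all groups.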
